A study of Mus musculus with 8 samples.

Results

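The 35 genes described here are immediate early response genes, named one by one: the AP-1 subunits, the Egr, Nr4a, Dusp and Klf families, 2 genes of mRNA decay, 2 further bZIP factors, and 10 others. They are 35 of the 54838 genes in each count table, and all 35 matched an Ensembl gene number. They lie on 17 chromosomes and 0 of them on chromosome 16, so none is part of the duplication that defines the mice. Gene expression was measured by RNA sequencing in the submandibular salivary gland of male mice whose strain is labelled C57BL/6J, after fat and connective tissue around the gland had been removed. The Dp16 group (4 libraries) carries the duplication Dp(16Lipi-Zbtb21)1Yey (stock B6.129S7-Dp(16Lipi-Zbtb21)1Yey/J), which gives an extra copy of the chromosome 16 genes from Lipi to Zbtb21 in every cell and serves as a model of Down syndrome. The WT group (4 libraries) is wild-type C57BL/6J. The labels give neither the age of the mice nor whether each library is 1 animal, so p-values measure the spread between libraries.

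Immediate early genes are transcribed soon after a cell is stimulated, from promoters whose activators are already present, and need no new protein. Growth factor and stress kinases act on them through serum response factor (SRF) at CArG boxes, and cyclic AMP and calcium act through CREB at cyclic AMP response elements. In rodent salivary glands, adrenergic and muscarinic agonists are known to induce Fos and related genes. Most of the transcripts are short-lived, and several products, such as the Dusp phosphatases and Zfp36, switch the response off again.

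Promoter sequences show how these regulators are laid out. RefSeq promoter windows on GRCm38.p6 were found for 28 of the 35 members, and the 250 bases before each start site were searched on both strands. The 7 members without a window were Fosl1, Egr1, Egr3, Klf10, Ier2, Myc and Arc. These were not searched, nor were bases farther upstream of any gene, so a missing match does not mean that a gene lacks the motif. The sequences below are shown because they belong to families whose members are compared next. Each is printed 5′ to 3′ on the strand of its gene, and capitals mark the motif. A CArG box was present in 3 of the 28 (Egr2, Dusp5 and Zfp36), against 1.62% of the 27025 genes with a window.
Egr2: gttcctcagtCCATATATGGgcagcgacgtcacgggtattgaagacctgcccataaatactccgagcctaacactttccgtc
Dusp5: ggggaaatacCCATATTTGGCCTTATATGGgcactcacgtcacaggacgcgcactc
Zfp36: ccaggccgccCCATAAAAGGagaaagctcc
The Egr2 stretch is chr10:67537787-67537868 on the plus strand and ends at the base before the start site. The Dusp5 stretch is chr19:53529053-53529108 on the plus strand and holds 2 boxes side by side. The Zfp36 stretch is chr7:28379267-28379296 on the minus strand, inside an exon that GENCODE M21 places on that strand.

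The full cyclic AMP response element TGACGTCA, which reads the same on both strands, was present in 3 of the 28 (Dusp1, Btg2 and 1 of the windows of Maff), against 1.77% of genes.
Dusp1: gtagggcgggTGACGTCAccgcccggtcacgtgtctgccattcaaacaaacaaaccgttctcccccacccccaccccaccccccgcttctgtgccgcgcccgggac
Btg2: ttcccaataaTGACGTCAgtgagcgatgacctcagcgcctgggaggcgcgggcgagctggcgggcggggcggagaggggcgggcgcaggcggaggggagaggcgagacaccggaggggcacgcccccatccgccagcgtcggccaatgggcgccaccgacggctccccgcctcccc
The Dusp1 stretch is chr17:26508520-26508625 and the Btg2 stretch is chr1:134079156-134079331, both on the minus strand. The shorter letters TGACG, or CGTCA on the other strand, occurred at least 3 times in 4 of the 28, against 0.777% of genes. Those 4 were Dusp1, where the full element accounts for 2 of the matches, and all 3 Nr4a genes, printed next.
Nr4a1: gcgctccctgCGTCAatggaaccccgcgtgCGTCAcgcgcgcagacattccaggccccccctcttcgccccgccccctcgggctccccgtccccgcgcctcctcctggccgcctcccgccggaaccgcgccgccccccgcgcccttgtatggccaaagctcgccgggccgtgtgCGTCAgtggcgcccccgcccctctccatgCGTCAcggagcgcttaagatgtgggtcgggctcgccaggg
Nr4a2: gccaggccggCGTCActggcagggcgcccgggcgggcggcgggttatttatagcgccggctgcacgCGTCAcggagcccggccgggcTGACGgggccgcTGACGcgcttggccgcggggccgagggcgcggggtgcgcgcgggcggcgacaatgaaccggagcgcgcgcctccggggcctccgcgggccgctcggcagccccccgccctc
Nr4a3: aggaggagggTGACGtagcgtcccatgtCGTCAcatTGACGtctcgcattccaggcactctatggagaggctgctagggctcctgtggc
These are chr15:101266603-101266845 (plus strand), chr2:57124004-57124213 (minus strand) and chr4:48045064-48045152 (plus strand). Of the 4 matches in the Nr4a3 window, 3 are printed. Over the other letters searched, TGACG was present at least once in 15 of the 28, against 19.8% of genes. The Egr motif GCGGGGGCG was present in 8 of the 28, against 2.93% of genes, and the AP-1 motif TGANTCA in 1 of the 28 (Csrnp1), against 7.82% of genes. A match describes letters only, and binding was not measured.

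Depth was high in all 8 libraries, with 90790542 to 111805185 reads in genes in Dp16 libraries and 97847453 to 115729892 in WT libraries. Of the members, 34 passed the filter on low counts and were tested together with 19324 other genes, 19358 in all. Fosl1, an AP-1 subunit, had 0 to 15 reads per library and was not tested. Levels are TMM-scaled CPM, that is counts per 1000000 reads in genes, after the TMM scaling that equalises the bulk of genes between libraries. The gland identity was plain from acinar products. The 7 acinar markers summed to 225897 to 309375 CPM in Dp16 libraries and 258073 to 364709 CPM in WT libraries. Most of that sum was Mucl2 alone, at 210317 to 285176 CPM in Dp16 and 234361 to 333956 CPM in WT. Smgc, also listed, had 0 to 5.15 CPM over the 8 libraries and was not tested. Markers of other cells moved with genotype: the 14 lymphocyte markers summed to 28.1, 11.2, 42.9 and 19.97 CPM in Dp16 replicates 1 to 4 and to 5.77 to 9.23 CPM in WT, with 0 markers at 0 reads in either group. All 14 were higher in Dp16 at an unadjusted edgeR p below 0.05, and 7 of them did not overlap between groups. Over all genes tested 12.7% were higher at that level and 7.11% were higher without overlap. DESeq2 called all 14 higher, limma-voom called 3, and edgeR called 1, Klrd1, against 5.89%, 1.28% and 0.47% of all genes. The 8 endothelial markers summed to 62.6 to 71.3 CPM in Dp16 and 52.8 to 60.8 CPM in WT. Of these, edgeR called 0, with 4 higher at an unadjusted p below 0.05, against 12.7% of all genes. The 6 granular duct markers summed to 41280 to 92250 CPM in Dp16 and 73765 to 125264 CPM in WT. All had negative log2 fold changes, as 48.9% of all genes did, and edgeR called 1, Klk1, lower, against 0.155% of all genes. The 4 skeletal muscle markers summed to 0.785 to 0.919 CPM in Dp16 and 1.14 to 1.68 CPM in WT, and the summed levels of the other 7 marker lists overlapped between groups. Single markers in those lists did not all overlap: Aqp5, the acinar water channel, had 53.9 to 84.0 CPM in Dp16 and 96.98 to 115 CPM in WT (log2 fold change -0.66, edgeR adjusted p = 0.0589). Bhlha15, an acinar transcription factor, had 110 to 157 CPM in Dp16 and 167 to 275 CPM in WT (log2 fold change -0.83, edgeR adjusted p = 0.0589). DESeq2 called both lower. At an unadjusted edgeR p below 0.05, 3 of the 4 adipocyte markers, 2 of 6 fibroblast markers and 2 of 5 myoepithelial and smooth muscle markers tested were lower. Of all genes, 11.9% were lower at that level. The adipocyte markers were near the floor, summing to 0.121 to 0.685 CPM in Dp16 and 0.375 to 1.82 CPM in WT. The share of reads assigned to no feature was 19.8% ± 1.16 in Dp16 and 14.98% ± 0.964 in WT (SD, n = 4 each). The part of these shifts in the results below was not tested except where a value is given. Less RNA per cell and fewer cells of a type cannot be told apart in whole glands.

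Most immediate early genes had lower values in Dp16 glands than in WT glands, and the log2 fold changes ran from -2.82 (Fosb) to 1.14 (Dusp2). Of the 34 tested, 28 had a negative log2 fold change and 6 a positive one, where 48.9% of all genes tested were negative and 51.1% positive. Their median log2 fold change was -0.37, against 0.01 over all genes tested. A log2 fold change of -1 or less was reached by 8 of the 34 (Fos, Fosb, Egr1, Egr2, Nr4a2, Nr4a3, Dusp1 and Dusp5), or 23.5%, and by 1.23% of all genes. The 2 groups did not overlap in 7 members that were lower in Dp16 (Fos, Egr1, Egr2, Nr4a1, Nr4a2, Ier2 and Csrnp1), or 20.6%, where 6.96% of all genes were lower without overlap. Dusp2 was higher without overlap, as 7.11% of all genes were.

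**Figure D1:**
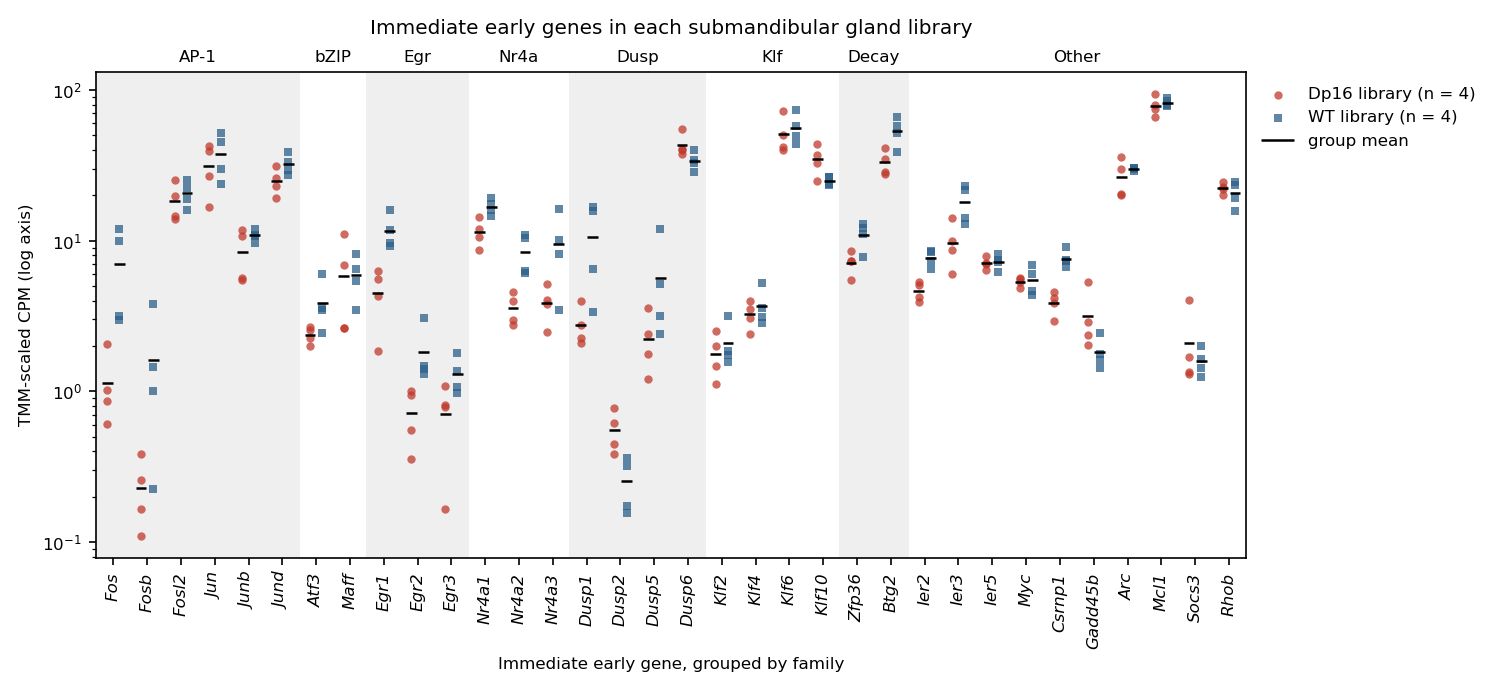
TMM-scaled CPM on a log axis for the 34 tested immediate early genes, with Dp16 libraries (red circles) left of WT libraries (blue squares), 4 each, and black bars at group means. The Dp16 circles lie below all WT squares for Fos, Egr1, Egr2, Nr4a1, Nr4a2, Ier2 and Csrnp1, and above them for Dusp2.

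By edgeR's quasi-likelihood test, with adjustment over all 19358 genes, 1 member passed an adjusted p of 0.05. That was Csrnp1, which fell. Over all genes 0.155% were called lower and 0.47% higher. At an unadjusted p below 0.05, edgeR gave 16 members lower (47.1%), where 11.9% of all genes were lower at that level, and 4 higher (11.8%), where 12.7% were. DESeq2 called 13 members lower and 1 higher, against 4.37% and 5.89% of the genes it gave an adjusted p. Limma-voom with quality weights called 3 lower (Nr4a2, Csrnp1 and Ier2) and 0 higher, against 0.77% and 1.28% of all genes. Without the filter on low counts, edgeR called 4 lower (Fos, Nr4a2, Csrnp1 and Ier2) and 0 higher, against 0.196% and 0.476% of all genes. The edgeR call depended on single libraries: the number of members called lower was 0 when any WT library or Dp16 replicate 1, 3 or 4 was left out, and 4 without Dp16 replicate 2 (Csrnp1, Ier2, Nr4a2 and Egr1).

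**Figure D2:**
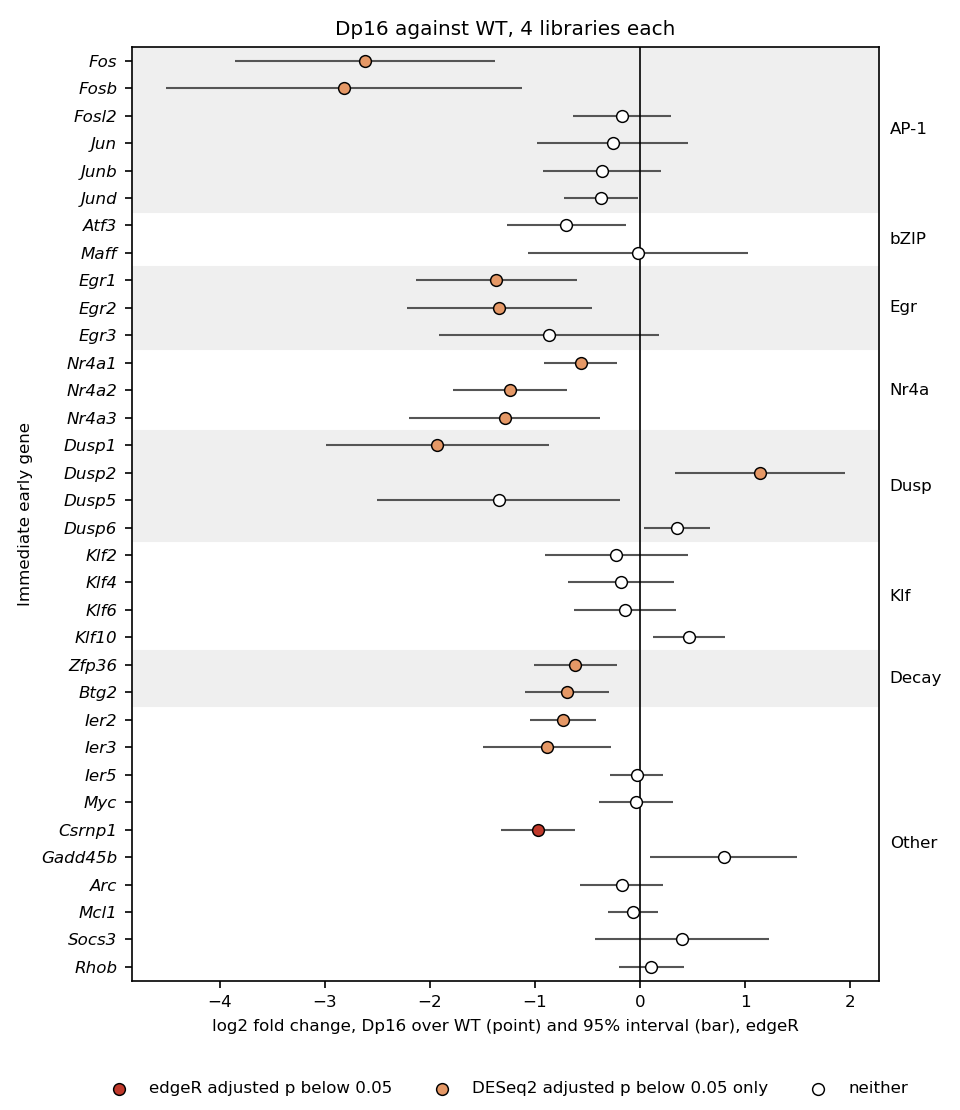
Log2 fold change of Dp16 over WT for the 34 tested genes from edgeR (points) with 95% intervals (bars), grouped by family. The intervals of 16 genes lie below 0 and those of 4 above it, and fill marks which tool gave an adjusted p below 0.05.

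The AP-1 subunits pair as Fos and Jun proteins into a transcription factor that binds TGANTCA, and Fos and Fosb showed the widest differences of all 34 members. Fos (chr12:85473890-85477273, 4 merged exons) had 1.014, 0.607, 2.06 and 0.858 CPM in Dp16 replicates 1 to 4, against 9.90, 11.9, 2.99 and 3.17 CPM in WT replicates 1 to 4. The groups did not overlap, and the highest Dp16 library lay 0.924 CPM under the lowest WT library. Within WT, replicates 1 and 2 were well above replicates 3 and 4. The log2 fold change was -2.62 (SE 0.551, 95% interval -3.86 to -1.38), with adjusted p-values of 0.0644 in edgeR, 0.00137 in DESeq2 and 0.0635 in limma-voom. Leaving out single libraries gave log2 fold changes from -3.08 to -2.24 and edgeR adjusted p-values from 0.0706 to 0.166.

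Fosb, a close relative of Fos, had 0.110, 0.165, 0.260 and 0.382 CPM in Dp16 replicates 1 to 4, against 3.78, 0.999, 1.46 and 0.226 CPM in WT replicates 1 to 4. WT replicate 4 lay among the Dp16 libraries, and WT libraries differed by 16.7-fold among themselves. Its log2 fold change was -2.82 (SE 0.754), with adjusted p-values of 0.0875 in edgeR, 0.0125 in DESeq2 and 0.15 in limma-voom. Without WT replicate 1, its highest library, the log2 fold change was -1.97 (edgeR adjusted p = 0.115). The 4 remaining subunits tested differed less, and their groups overlapped. Fosl2, a Fos family member whose level per length was above that of Fos in Dp16 and below it in WT, averaged 18.3 ± 5.24 CPM in Dp16 and 20.6 ± 3.98 CPM in WT (SD, n = 4), with a log2 fold change of -0.17 (95% interval -0.63 to 0.30). The dimer partners Jun, Junb and Jund had log2 fold changes of -0.26, -0.36 and -0.37, with adjusted p-values of 0.633, 0.385 and 0.187 in edgeR. Jun ranged from 16.6 to 42.6 CPM in Dp16 and from 23.7 to 51.7 CPM in WT, so its range in each group covered most of the other's. Relative to Jun in the same library, Fos, which did not overlap by itself, stood at 0.0258 to 0.0484 in Dp16 and at 0.066 to 0.5002 in WT.

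Atf3, a bZIP factor of stress responses, averaged 2.37 ± 0.308 CPM in Dp16 and 3.87 ± 1.49 CPM in WT (SD, n = 4), with a log2 fold change of -0.70 (SE 0.252, edgeR adjusted p = 0.144). WT replicate 4, at 2.44 CPM, lay within the Dp16 range of 1.99 to 2.69 CPM. Maff, a small Maf protein that lacks an activation domain, had 6.90, 2.64, 11.0 and 2.61 CPM in Dp16 replicates 1 to 4, against 6.52, 5.38, 8.15 and 3.47 CPM in WT replicates 1 to 4. The spread within each group exceeded the difference between their means, and its log2 fold change was -0.02 (95% interval -1.07 to 1.03).

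The 3 Egr genes encode zinc finger factors that SRF induces through CArG boxes, and all 3 had negative log2 fold changes. Only Egr2, printed above, had a promoter window to search. Egr1 had 6.31, 1.854, 4.31 and 5.59 CPM in Dp16 replicates 1 to 4, against 9.22, 11.7, 16.0 and 9.67 CPM in WT replicates 1 to 4. Every Dp16 library was below every WT library, and Dp16 replicate 2 was the lowest. The log2 fold change was -1.37 (SE 0.340, 95% interval -2.13 to -0.60), with adjusted p-values of 0.0786 in edgeR, 0.00127 in DESeq2 and 0.0624 in limma-voom. Leaving out single libraries gave log2 fold changes from -1.58 to -1.11. The edgeR adjusted p-values then ran from 0.0461 without Dp16 replicate 2 to 0.184 without WT replicate 2.

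Egr2 had 0.941, 0.355, 0.557 and 1.013 CPM in Dp16 replicates 1 to 4, against 1.41, 1.48, 3.05 and 1.30 CPM in WT replicates 1 to 4. The groups did not overlap, though the lowest WT library was 0.289 CPM above the highest Dp16 library. Its log2 fold change was -1.34 (SE 0.393, edgeR adjusted p = 0.103, DESeq2 adjusted p = 0.00958, limma-voom adjusted p = 0.0911). Egr3 had 1.08, 0.165, 0.789 and 0.816 CPM in Dp16 replicates 1 to 4 and 1.37, 0.968, 1.79 and 1.07 CPM in WT replicates 1 to 4. Dp16 replicate 1 lay above 2 WT libraries, and the log2 fold change was -0.87 (SE 0.466, edgeR adjusted p = 0.274). For scale, 0.165 CPM of Egr3 in Dp16 replicate 2 was 19 reads. Without that library the log2 fold change of Egr3 was -0.54 (edgeR adjusted p = 0.234).

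The Nr4a genes encode orphan nuclear receptors that cyclic AMP and calcium signals induce, and all 3 had unadjusted edgeR p-values below 0.05 in the negative direction. Nr4a2 (chr2:57106830-57124003) had 2.99, 4.56, 2.74 and 3.96 CPM in Dp16 replicates 1 to 4, against 6.33, 10.3, 10.8 and 6.06 CPM in WT replicates 1 to 4. The groups did not overlap. The log2 fold change was -1.24 (SE 0.243, 95% interval -1.78 to -0.69), with an edgeR adjusted p of 0.0577. Limma-voom and DESeq2 called it lower, with a limma-voom adjusted p of 0.0438 and a DESeq2 adjusted p of 7.2e-05.

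Nr4a1, the member of the family with the highest level per length, had 14.4, 10.5, 8.65 and 11.9 CPM in Dp16 replicates 1 to 4 and 17.5, 15.9, 19.2 and 14.7 CPM in WT replicates 1 to 4. Its groups were apart by 0.279 CPM, and its log2 fold change was -0.56 (SE 0.155, edgeR adjusted p = 0.0915). Nr4a3 had 5.15, 4.06, 3.81 and 2.48 CPM in Dp16 replicates 1 to 4, against 3.47, 8.15, 16.2 and 10.04 CPM in WT replicates 1 to 4. WT replicate 1 lay inside the Dp16 range, and the log2 fold change was -1.29 (SE 0.404, edgeR adjusted p = 0.114). The summed level of the 3 genes was 15.2 to 22.5 CPM in Dp16 and 27.3 to 46.2 CPM in WT.

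The Dusp genes, phosphatases that remove the activating phosphates of MAP kinases, split in direction: Dusp1 and Dusp5 had negative and Dusp2 and Dusp6 positive log2 fold changes. Dusp1, a nuclear phosphatase with preference for p38 and JNK, had 2.74, 2.10, 3.96 and 2.26 CPM in Dp16 replicates 1 to 4, against 16.6, 6.52, 15.7 and 3.37 CPM in WT replicates 1 to 4. The Dp16 libraries were close together and WT libraries ran over 4.94-fold, with WT replicate 4 inside the Dp16 range. Its log2 fold change was -1.93 (SE 0.472, 95% interval -2.99 to -0.87), with adjusted p-values of 0.0766 in edgeR, 0.00896 in DESeq2 and 0.103 in limma-voom. Dusp5, a nuclear phosphatase of ERK, had 3.56, 1.205, 2.40 and 1.76 CPM in Dp16 replicates 1 to 4 and 5.14, 2.39, 12.0 and 3.18 CPM in WT replicates 1 to 4. WT replicate 3 stood high, and the log2 fold change of -1.35 (SE 0.514, edgeR adjusted p = 0.159) became -0.69 without it.

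Dusp6, a cytoplasmic phosphatase of ERK, had 40.8, 37.5, 54.8 and 39.7 CPM in Dp16 replicates 1 to 4, against 28.6, 34.4, 32.5 and 40.0 CPM in WT replicates 1 to 4. The groups overlapped through WT replicate 4, and its log2 fold change was 0.35 (SE 0.139, edgeR adjusted p = 0.168). Relative to Dusp6 in the same library, which differed in the opposite direction, Dusp1 stood at 0.056 to 0.0723 in Dp16 and at 0.0842 to 0.582 in WT. Dusp1 by itself overlapped between groups. Other such ratios overlapped between groups: Nr4a2 to Nr4a1 (0.208 to 0.432 in Dp16, 0.363 to 0.653 in WT) and Klf10 to Klf6 (0.599 to 0.822 and 0.318 to 0.602). Those of Fos to Fosl2 and Egr1 to Mcl1 did not overlap, but neither did Fos or Egr1 by itself. The pairs were chosen with earlier results known, and no share over other gene pairs was computed. The ratios are therefore a description only. Dusp2, known as a phosphatase of activated blood cells, had 0.612, 0.451, 0.780 and 0.382 CPM in Dp16 replicates 1 to 4 and 0.362, 0.156, 0.317 and 0.174 CPM in WT replicates 1 to 4. Its counts were 15 to 84 reads per library, and its log2 fold change was 1.14 (SE 0.359, edgeR adjusted p = 0.114, DESeq2 adjusted p = 0.0356, limma-voom adjusted p = 0.0734). The Dp16 libraries stand in the same order for Dusp2 as for the summed lymphocyte markers except that replicates 2 and 4 trade places, and the part of those cells in the Dusp2 level was not tested.

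Klf genes encode Krüppel-like zinc finger factors, and none of the 4 was called by edgeR, DESeq2 or limma-voom. The highest in level per length, Klf6, averaged 51.0 ± 15.1 CPM in Dp16 and 56.2 ± 13.0 CPM in WT (SD, n = 4), with a log2 fold change of -0.14 (95% interval -0.62 to 0.35). Klf2, known for its role in endothelium and T cells, had a log2 fold change of -0.23 (95% interval -0.91 to 0.46), and Klf4, an epithelial factor, had -0.18 (95% interval -0.68 to 0.33). In all 3 of these genes replicate 3 was the highest library of its genotype, in Dp16 and in WT. Klf10, which TGF-beta induces, had 37.2, 32.7, 44.0 and 24.9 CPM in Dp16 replicates 1 to 4, against 26.6, 26.3, 23.4 and 23.9 CPM in WT replicates 1 to 4. Dp16 replicate 4 lay inside the narrow WT range, and the log2 fold change was 0.47 (SE 0.153, edgeR adjusted p = 0.121).

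The 2 members that act on mRNA decay both had negative log2 fold changes with unadjusted edgeR p-values below 0.05. Zfp36 binds AU-rich elements in short-lived transcripts and marks them for decay, and Btg2 binds the CCR4-NOT deadenylase. Zfp36 had 7.32, 5.51, 8.49 and 7.29 CPM in Dp16 replicates 1 to 4, against 12.9, 11.0, 12.1 and 7.82 CPM in WT replicates 1 to 4. Btg2 had 34.7, 28.6, 41.3 and 27.7 CPM in Dp16 replicates 1 to 4, against 52.0, 57.9, 65.8 and 38.7 CPM in WT replicates 1 to 4. In both genes 3 Dp16 libraries lay below all WT libraries and Dp16 replicate 3 lay above WT replicate 4. The log2 fold changes were -0.61 (SE 0.177, edgeR adjusted p = 0.0993) for Zfp36 and -0.70 (SE 0.177, edgeR adjusted p = 0.0815) for Btg2. Their DESeq2 adjusted p-values were 0.0198 and 0.00711, and their limma-voom adjusted p-values 0.0807 and 0.0593.

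Among the 10 remaining members, Csrnp1 fell, Ier2 and Ier3 had unadjusted p-values below 0.05 in the same direction, and the other 7 differed little or were higher in Dp16. Csrnp1, a cysteine- and serine-rich nuclear protein described in human cells as induced by axin, lies on chr9:119971163-119984658 with 8 merged exons. It had 4.59, 2.91, 3.84 and 4.14 CPM in Dp16 replicates 1 to 4, against 6.65, 7.46, 9.02 and 7.30 CPM in WT replicates 1 to 4. The groups were separated by 2.06 CPM, more than the SD within either group. The log2 fold change was -0.97 (SE 0.157, 95% interval -1.33 to -0.62), with an edgeR adjusted p of 0.0396. Leaving out single libraries kept it between -1.07 and -0.86, with edgeR adjusted p-values from 0.0287 without Dp16 replicate 2 to 0.12 without WT replicate 2.

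Ier2, a small nuclear protein of the growth factor response, had 5.28, 5.11, 4.23 and 3.91 CPM in Dp16 replicates 1 to 4 and 8.45, 7.33, 8.59 and 6.47 CPM in WT replicates 1 to 4. Its groups did not overlap and were tight in both genotypes. The log2 fold change was -0.73 (SE 0.139, edgeR adjusted p = 0.0538), and limma-voom called it lower with a limma-voom adjusted p of 0.0459. Ier3, a regulator of survival and ERK signalling, averaged 9.68 ± 3.34 CPM in Dp16 and 17.9 ± 5.10 CPM in WT (SD, n = 4), with a log2 fold change of -0.89 (SE 0.271, edgeR adjusted p = 0.110). Dp16 replicate 3, at 14.04 CPM, lay above WT replicate 1, at 12.9 CPM.

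Several members had log2 fold changes near 0. Mcl1, an anti-apoptotic protein and the member with the highest level per length, had a log2 fold change of -0.07 (95% interval -0.30 to 0.17). Ier5 had -0.03 (95% interval -0.28 to 0.22), the oncogene product gene Myc had -0.04 (95% interval -0.39 to 0.32), and Rhob, a small GTPase, had 0.11 (95% interval -0.20 to 0.42). Arc, known from synapses, had 30.1, 20.3, 20.1 and 35.6 CPM in Dp16 replicates 1 to 4 and 30.0, 30.3, 30.5 and 28.9 CPM in WT replicates 1 to 4. WT libraries thus differed by 1.06-fold and Dp16 libraries by 1.77-fold, on both sides of the WT values. Gadd45b, a stress-induced activator of p38 and JNK kinases, averaged 3.16 ± 1.501 CPM in Dp16 and 1.81 ± 0.432 CPM in WT (SD, n = 4), with a log2 fold change of 0.80 (SE 0.310, edgeR adjusted p = 0.163). Socs3, an inhibitor of JAK-STAT signalling, averaged 2.09 ± 1.30 CPM in Dp16 and 1.59 ± 0.327 CPM in WT (SD, n = 4). Dp16 replicate 3 was the highest library for Gadd45b (5.35 CPM) and Socs3 (4.03 CPM). It also had the highest marker sums of all 8 libraries for lymphocytes (42.9 CPM), macrophages and monocytes (355 CPM) and blood (142 CPM), and was the highest Dp16 library for 22 of the 34 members. The part of these in both genes was not tested. Without that library the log2 fold changes were 0.42 and -0.13.

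Levels per length of exon ordered the members differently from their differences. Mcl1 (23.0 ± 3.34 CPM per kilobase in Dp16 and 24.1 ± 1.41 in WT), Jund (14.9 ± 3.00 and 19.3 ± 3.00) and Btg2 (12.1 ± 2.31 and 19.5 ± 4.17) led over the 8 libraries (SD, n = 4 per group). Jund and Btg2 did not differ from each other beyond their spread in WT. Fos ranked 30 of 34 in Dp16 (0.482 ± 0.272) and 16 of 34 in WT (2.97 ± 1.95), and Egr2, Egr3, Dusp2 and Fosb were the lowest 4, at 0.148 to 0.372 on average over the 8 libraries.

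Spread within groups was wide for these genes in both genotypes. The median SD of log2 CPM over the 34 members was 0.40 among Dp16 libraries and 0.33 among WT libraries, against medians of 0.24 and 0.22 over all genes tested. In Dp16, 28 of the 34 lay above the median of all genes, and in WT 25 did. The SD was larger in Dp16 for 20 members and larger in WT for 14, or 41.2%, near the 46.9% of all genes that were wider in WT. Families differed in which group was wider, as a description: the Dusp median was 0.42 in Dp16 and 0.79 in WT, and the Egr median was 0.79 in Dp16 and 0.39 in WT. Fosb (0.71 in Dp16 and 1.64 in WT), Dusp1 (0.41 and 1.10), Fos (0.73 and 1.05) and Dusp5 (0.66 and 1.014) had the largest SDs in WT. Egr3 (1.17 in Dp16 and 0.39 in WT) and Maff (1.03 and 0.52) had the largest in Dp16.

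**Figure D3:**
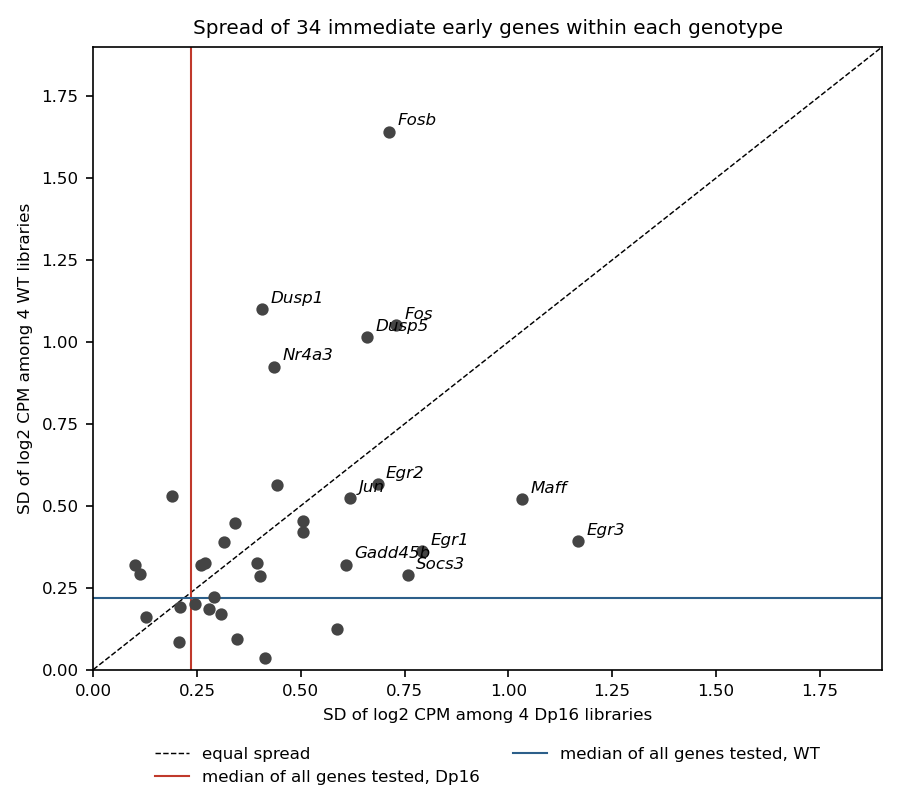
SD of log2 CPM among the 4 Dp16 libraries (horizontal) and the 4 WT libraries (vertical) for each of 34 immediate early genes, with lines at the medians of all genes tested (0.24 and 0.22). Fosb, Dusp1 and Nr4a3 lie far above the line of equal spread, and Egr3, Maff, Socs3, Junb and Egr1 far below it. The SD was larger in Dp16 for 20 genes and larger in WT for 14.

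The same libraries were extreme in many of the genes. WT replicate 3 was the highest WT library for 22 of the 34 members and Dp16 replicate 3 the highest Dp16 library for 22, where 24.7% and 29.7% of all genes tested were highest in those libraries. WT replicate 4 was the lowest WT library for 20 members, and Dp16 replicates 2 and 4 were the lowest Dp16 libraries for 16 and 13. Of all genes tested, 25.5% were lowest in WT replicate 4, 26.2% in Dp16 replicate 2 and 25.5% in Dp16 replicate 4. Set against the WT mean of each gene, the median over the 34 members was -0.16, -0.83, -0.30 and -0.59 on the log2 scale in Dp16 replicates 1 to 4. It was 0.06, -0.06, 0.33 and -0.30 in WT replicates 1 to 4. WT replicate 4 was below the WT mean in 30 of 34 members, as was Dp16 replicate 4, whereas Dp16 replicate 3 was below it in 18. The list as a whole therefore overlapped between genotypes, and only some of its genes did not.

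**Figure D4:**
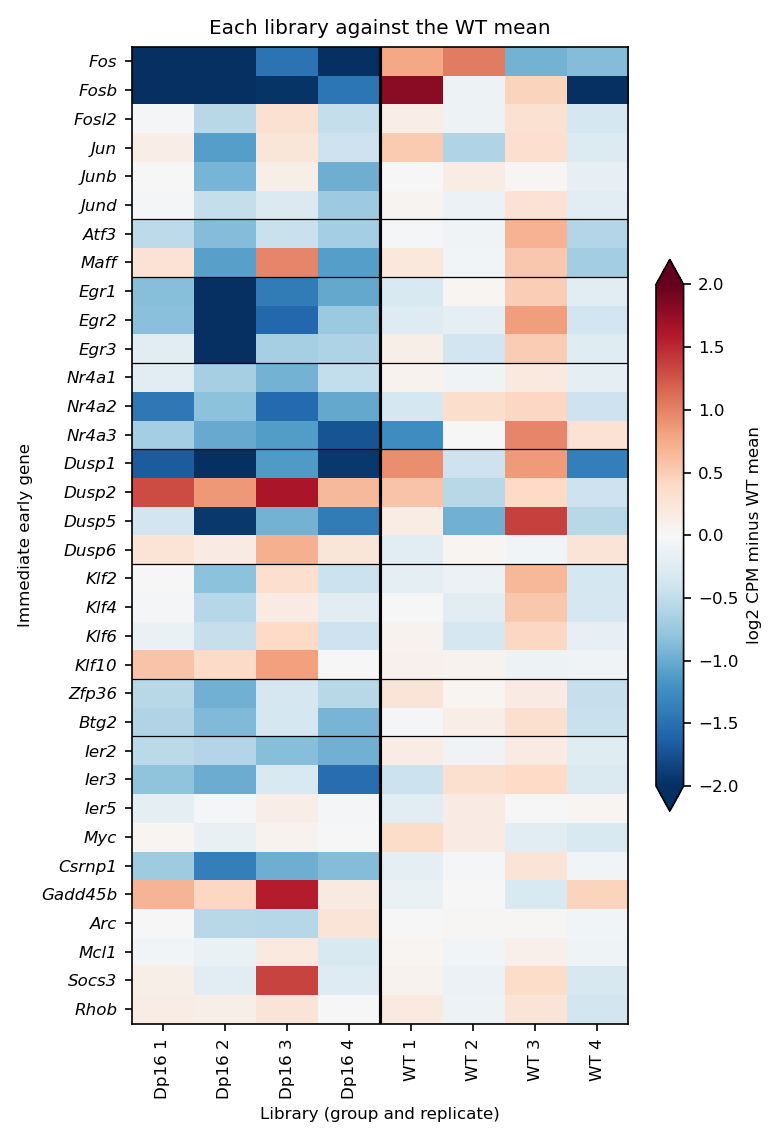
Log2 CPM of each library minus the WT mean of the gene, for 34 genes (rows, by family) and 8 libraries (columns, Dp16 left of WT), with colours saturated at -2 and 2. Fos, Egr1, Egr2, Nr4a1, Nr4a2, Ier2 and Csrnp1 are below the WT mean (blue) in all 4 Dp16 columns. So are Fosb, Jund, Atf3, Egr3, Nr4a3, Dusp1, Dusp5, Zfp36, Btg2 and Ier3, some of them palely. WT 3 is red and WT 4 blue over most rows.

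**Figure D5:**
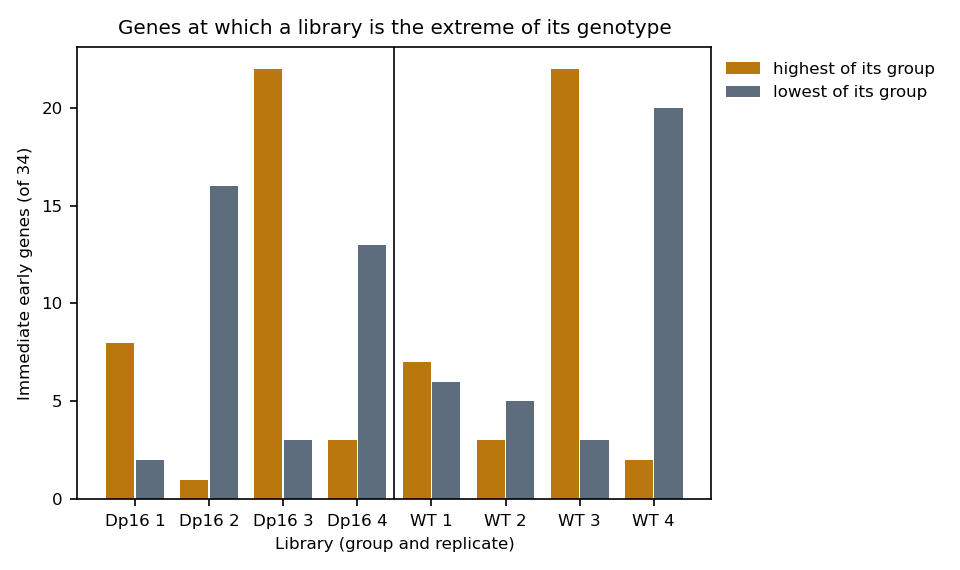
Number of the 34 genes at which each library was the highest (brown) or the lowest (grey) of its own genotype, with Dp16 libraries left of WT libraries. Dp16 3 and WT 3 are highest for 22 genes each, and WT 4 is lowest for 20.

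Deviations from the group means showed which genes went together across the 8 libraries, as a description with no test. The pattern of Csrnp1 was nearest to Egr1 among members (Pearson r = 0.97), then to Egr2 (0.92) and Egr3 (0.87), and was unlike that of Fos (-0.08). Fos was nearest to Myc (0.87), then Zfp36 (0.62) and Klf10 (0.59), and stood at 0.10 with Egr1. Outside the list the 5 nearest to Csrnp1 were Adgrg1, Adat1, P3h1, Dnajb5 and Fbxo36 (0.96 to 0.97), and the 5 nearest to Fos were BC052040, Ncaph, Gm26510, Mon1b and Pkig (0.96 to 0.99). Those are the highest of 19324 genes over 8 libraries that share depth and scaling.

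Upstream regulators and other related genes were compared through lists, 131 genes tested in all. Besides the SRF, CREB, ERK, and JNK and p38 lists, these hold other inducible early genes, paralogs of the members and decay genes. The shares over all 131 therefore do not describe upstream regulators alone. At an unadjusted edgeR p below 0.05, 28 were lower (21.4%) and 14 higher, against 11.9% and 12.7% of all genes. Crem and Atf1 each belong to the CREB list and to another list. After adjustment edgeR called 1 gene lower and 0 higher. That gene was Tob1, which like Btg2 brings the CCR4-NOT deadenylase to transcripts. It fell to 37.5 ± 4.66 CPM in Dp16, against 56.1 ± 0.853 CPM in WT (SD, n = 4, log2 fold change -0.58, SE 0.092, edgeR adjusted p = 0.0388). Its groups did not overlap, at 30.7 to 40.6 CPM in Dp16 and 55.0 to 56.9 CPM in WT. Over the 24 deadenylation and AU-rich element genes the median log2 fold change was -0.02, and unadjusted p-values below 0.05 were found for 5 lower and 3 higher. Tob2 (-0.45), Elavl1 (-0.37), which encodes the AU-rich element binding protein HuR, and Cnot7 (-0.20) had adjusted p-values of 0.071, 0.0743 and 0.11 in edgeR.

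SRF itself, the factor of the CArG box, had 5.12, 5.54, 5.45 and 5.34 CPM in Dp16 replicates 1 to 4, against 6.76, 7.18, 8.25 and 6.89 CPM in WT replicates 1 to 4. The groups did not overlap, and the log2 fold change was -0.44 (SE 0.097, edgeR adjusted p = 0.0677, limma-voom adjusted p = 0.0469). Its partners Elk3 (0.45), Elk4 (0.10) and Mrtfb (0.09) had adjusted p-values of 0.142, 0.42 and 0.545 in edgeR. Of the 6 genes of this list, 0 were called by edgeR, 1 was lower and 1 higher at an unadjusted p below 0.05, while Srf was the 1 gene called by each of DESeq2 and limma-voom. Of the 8 CREB genes, edgeR called 0, with 2 lower and 0 higher at an unadjusted p below 0.05, and the median was -0.07. Crem, whose inducible form represses cyclic AMP targets, had -0.78 (edgeR adjusted p = 0.0986, DESeq2 adjusted p = 0.0149, limma-voom adjusted p = 0.074), and Creb1 had -0.14 (edgeR adjusted p = 0.19).

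In the cascade of 19 genes from the EGF receptor to ERK, edgeR called 0, with 4 lower and 1 higher at an unadjusted p below 0.05, and the median log2 fold change was -0.08. Hras, a Ras GTPase, averaged 20.3 ± 0.959 CPM in Dp16 and 28.6 ± 3.30 CPM in WT (SD, n = 4), with a log2 fold change of -0.50 (edgeR adjusted p = 0.0532, limma-voom adjusted p = 0.0349). Map2k2, the ERK kinase MEK2, had -0.48 (edgeR adjusted p = 0.0714), Araf had -0.18 (0.13) and Rps6ka1, a kinase downstream of ERK, had 0.35 (0.093). Of the 9 JNK and p38 genes, edgeR called 0, with 2 lower and 1 higher at an unadjusted p below 0.05. Mapk8, which encodes JNK1, had -0.25 (edgeR adjusted p = 0.0846), Mapkapk2 had -0.32 (0.0875), Map2k6 had 0.50 (0.149) and Map2k3 had -0.31 (0.224).

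Other inducible early genes leaned the same way as the members. Of 32, edgeR called 0. At an unadjusted edgeR p below 0.05, 8 were lower (25%) and 2 higher, against 11.9% and 12.7% of all genes. Negative log2 fold changes were found for 25 (78.1%), against 48.9% of all genes, and the median was -0.25. DESeq2 called 6 lower and 1 higher, against 4.37% and 5.89% of the genes it gave an adjusted p. Ccn1, a secreted matrix protein induced by SRF and YAP, had 6.16, 2.45, 5.14 and 4.02 CPM in Dp16 replicates 1 to 4, against 24.3, 15.6, 32.4 and 7.18 CPM in WT replicates 1 to 4. Its groups did not overlap, WT replicate 4 was the lowest WT library as for Fosb and Dusp1, and the log2 fold change was -2.16 (SE 0.443, edgeR adjusted p = 0.0609). Bhlhe40 (-1.03), a repressor of the clock, and Trib1 (-0.51) had adjusted p-values of 0.0832 and 0.0589 in edgeR, and the kinase gene Sik1 (-0.91) had 0.0683. Among 35 tested paralogs of the members, edgeR called 0, with 7 lower and 6 higher at an unadjusted p below 0.05, and the median was -0.01. Gadd45g had -1.32 and Mafg -0.44, Bcl2 had 0.60 and Klf7 0.42, with adjusted p-values of 0.0792, 0.0815, 0.0697 and 0.0815 in edgeR.

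Overlapping genes limit some of these values. Exons of 8 members overlap a gene on the opposite strand in GENCODE M21 (Fosl1, Jun, Junb, Jund, Dusp1, Dusp5, Zfp36 and Csrnp1), and whether counting used strand is not given in the sources used here. For Csrnp1 the overlap is 224 bases with 1700019L13Rik, which averaged 0 CPM in Dp16 and 0.0181 CPM in WT. For Dusp1 it is 11 bases with Ergic1, which averaged 64.7 CPM in Dp16 and 92.5 CPM in WT. For Junb it is 173 bases with Prdx2, which averaged 59.3 CPM in Dp16 and 67.6 CPM in WT. For Jund it is 877 of 1668 exon bases with Gm11175, which averaged 0.364 CPM in Dp16 and 0.358 CPM in WT. The part of these overlaps in the levels of the members was not tested.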

How the data were processed

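Submandibular glands of male mice were profiled in 4 Dp16 and 4 WT libraries. The authors deposited raw read counts per Ensembl gene, 1 table per library. Build GRCm38 and the tools STAR, HTSeq, FastQC and DESeq2 come from the submitters' processing notes; tool versions, the annotation release and whether counting used strand were not given in the sources used here. Per the labels' protocols, libraries were stranded total RNA with ribosomal depletion. Each table held 54838 genes, of which 54723 matched GENCODE M21, and 5 rows that name no gene, which held 60.8% to 65.3% of reads in Dp16 and 58.1% to 65.4% in WT and were left out.

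Counts were fitted in R 4.3.3 with edgeR 4.0.16 (filterByExpr, TMM, glmQLFit and glmQLFTest, genotype only), and p-values were adjusted by Benjamini-Hochberg over 19358 genes and called below 0.05. Levels are TMM-scaled CPM, with a prior count of 2 on the log2 scale. Intervals cover 95% and come from the same fit. Alternatives were DESeq2 1.42.0, limma-voom (limma 3.58.1), other scalings and filters, a replicate block and each library left out. The fits were also run on simulated counts drawn independently for each gene. Shifts shared by many genes within a library were not simulated. Replicate libraries differed by more than sampling noise, the chi-square statistic being 85.7 to 266 times its degrees of freedom. The members, lists and tests were chosen with earlier results of these data known. Named were all members, and up to 4 genes of each pathway list by smallest p.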

Additional observations from a re-analysis of the deposited data

Results flagged for a closer look

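Among 68 sets of 4 libraries examined (34 genes in each genotype), 1 held a library far from the other 3 by Dixon's criterion, where chance gives about 1 in 20. It was Egr2 in WT replicate 3, at 3.05 CPM, with the other WT libraries at 1.30 to 1.48 CPM. The share of reads overlapping no counted feature lay outside the comparisons of genes and averaged 19.8% in Dp16 libraries (18.4% to 20.8%), against 13.8% to 15.9% in WT libraries.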

How the results depend on the processing

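The direction of most members held, while the number of calls moved widely. Of 508 single-gene comparisons with an alternative, 459 kept direction and side of the threshold, 26 passed it newly, 7 lost it and 16 turned sign. Genes called higher and lower, 91 and 30 in the fit reported, numbered 1145 and 851 with DESeq2, 247 and 149 with limma-voom, 158 and 65 without a filter, and 746 and 562 at an adjusted p below 0.10; the share called higher was 75.2% in the fit reported, 57.4% with DESeq2 and 62.4% with limma-voom. Leaving out 1 library gave 0 to 354 higher and 0 to 92 lower. Members called lower, 1 in the fit reported, numbered 13, 3, 4 and 10 under those 4 settings in that order, and 0 to 4 without 1 library, and DESeq2 called 1 higher. Calls in the pathway lists, 1 in the fit reported, numbered 21, 5, 4 and 19, with 2 under a filter of at least 1 CPM in 4 libraries and 0 to 2 without 1 library. That filter gave a Dusp median of -1.32, against -0.50 in the fit reported, because Dusp2 was then not tested, and gave Maff 0.013. Limma-voom gave Myc 0.017. Leaving out 1 library gave log2 fold changes from -0.53 to 0.22 for Maff, -0.44 to 0.039 for Klf2, -0.29 to 0.026 for Klf4, -0.35 to 0.0058 for Klf6, -0.11 to 0.026 for Ier5, -0.13 to 0.088 for Myc, -0.13 to 0.56 for Socs3 and -0.0024 to 0.19 for Rhob, and a Klf median from -0.32 to 0.03. The causes were not tested. With a replicate block 360 genes were called higher (1.86%) and 416 lower (2.15%), a share of 46.4% higher. That fit called 6 members lower and 15 pathway genes. The labels do not state that equal numbers mark pairs, so the fit reported holds genotype only. Deviations of same-numbered libraries correlated at 0.191, 0.129, 0.0777 and 0.105, all positive. The 12 other pairings ran from -0.225 to 0.141, and Dp16 replicate 2 correlated best with WT replicate 4 (0.131). Whether equal numbers mark anything shared was not settled. Depth limits Fosl1, Fosb, Dusp2, Egr3 and Egr2, whose lowest counts were 0, 12, 15, 19 and 41 reads.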
